A study of Mus musculus with 6 samples.

Results

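The genes described here are the 4 pyruvate dehydrogenase kinases Pdk1, Pdk2, Pdk3 and Pdk4 and the catalytic subunits of the pyruvate dehydrogenase phosphatases, Pdp1 and Pdp2, 6 of 22180 genes measured. They were measured in whole sciatic nerves of 10-month-old Srebf-1c KO mice and of their wild-type littermates, 3 samples each and 1 Affymetrix whole-transcript array per sample. Srebf-1c is a product of Srebf1 that switches on fatty acid synthesis. The sciatic nerve is a peripheral nerve of the leg in which Schwann cells wrap axons with lipid-rich myelin. The labels give no allele, sex or strain, and they do not say that the samples are separate animals, so the p-values rest on a spread between samples that could be technical in part. The gene family was chosen by name with the Pdk4 difference already known from these arrays, and the probe set of each gene was selected by the highest mean over the 6 arrays. All values of Pdk4 below are therefore descriptions. Pdk1 alone had a second probe set, which was left out at a mean log2 intensity of 3.65, against 8.33 for the one used.

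Pyruvate dehydrogenase is the mitochondrial complex that turns pyruvate from glycolysis into acetyl-CoA, the fuel of the citric acid cycle and, once exported as citrate, the building block of fatty acids. The kinases add phosphate to the E1 alpha subunit and switch the complex off, and the phosphatases remove it and switch the complex on. Pdk4 is known as the fasting isoform, raised by fatty acids through peroxisome proliferator-activated receptors (PPARs), by glucocorticoids and by FOXO factors. Pdk1 is known as a target of hypoxia-inducible factors, Pdk2 is widely expressed, Pdp1 is calcium-activated and known from muscle, and Pdp2 is known as insulin-sensitive in liver and fat.

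SREBP-1 proteins bind sterol regulatory elements and E-boxes, so the promoter windows of the members, 250 bases before to 50 after an annotated start (RefSeq, GRCm38.p6), were searched on both strands. The table used here held 7 windows for 5 of the 6 genes. The 3 windows shown are that of Pdk4, the gene with the largest difference between genotypes, and the 2 of the family that hold the E-box CACGTG, set in capitals. They lie at chr6:5496229-5496528 on the minus strand for Pdk4, chr11:95041322-95041621 on the minus strand for Pdk2 and chr8:104591222-104591521 on the plus strand for Pdp2.
Pdk4: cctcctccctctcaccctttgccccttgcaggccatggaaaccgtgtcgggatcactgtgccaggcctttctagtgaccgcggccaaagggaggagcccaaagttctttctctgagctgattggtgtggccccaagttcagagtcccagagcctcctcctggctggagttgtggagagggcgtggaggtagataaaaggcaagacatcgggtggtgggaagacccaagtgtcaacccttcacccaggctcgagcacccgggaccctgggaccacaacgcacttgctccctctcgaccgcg
Pdk2: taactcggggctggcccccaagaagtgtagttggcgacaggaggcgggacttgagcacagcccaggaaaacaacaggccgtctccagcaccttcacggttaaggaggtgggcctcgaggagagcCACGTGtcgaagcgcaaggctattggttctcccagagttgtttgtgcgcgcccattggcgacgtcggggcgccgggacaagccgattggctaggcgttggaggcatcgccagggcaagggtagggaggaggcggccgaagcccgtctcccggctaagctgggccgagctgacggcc
Pdp2: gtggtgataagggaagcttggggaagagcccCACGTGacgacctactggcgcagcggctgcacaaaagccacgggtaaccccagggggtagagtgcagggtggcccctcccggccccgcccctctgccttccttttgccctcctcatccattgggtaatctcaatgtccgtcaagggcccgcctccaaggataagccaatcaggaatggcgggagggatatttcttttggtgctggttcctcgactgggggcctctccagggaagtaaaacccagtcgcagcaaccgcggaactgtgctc

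The E-box began at position -126 from the annotated start in the Pdk2 window and at -219 in the Pdp2 window, and it contains the hypoxia response core ACGTG, which the Pdk3 window also held at -53. Of 32851 windows in the table, 7.15% held CACGTG and 19.6% held ACGTG. The sterol regulatory element TCACNCCAC was in 0 of the 7 windows and in 1.24% of all windows. The Pdk4 window held no match to any motif searched, which besides these were the forkhead motif GTAAACA (3.65% of all windows), the glucocorticoid half-sites ACANNNTGT (6.85%), the nuclear receptor half-site AGGTCA (16.3%) and the PPAR repeat of 2 such half-sites spaced by 1 base (0.0396%). These searches describe letters in short windows only.

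Srebf1, the targeted gene, had log2 intensities of 8.11, 8.06 and 8.04 on the KO arrays, against 9.53, 9.55 and 9.70 on the wild-type arrays. It was the 1 gene past a limma adjusted p of 0.05, at 0.0497, with a log2 fold change of -1.52. That call was lost in 12 of 17 alternatives, among them the removal of any 1 array (limma adjusted p = 0.255 to 0.764) and the replicate block (adjusted p = 0.713), while the log2 fold change of Srebf1 stayed between -1.56 and -1.46. One label, the source name, calls the KO samples wild type too, and the grouping follows titles and genotype. Median intensity per array ran from 115.5 to 122.6. The Schwann cell genes Pmp22 and Mbp were bright on all arrays, at log2 13.4 to 13.7 for Pmp22 and 12.6 to 12.8 for Mbp. The 9 measured Schwann cell marker genes summed to 29854 to 32794 in KO and 28556 to 34598 in wild type. Of these, 5 had higher and 4 lower means in KO, with log2 fold changes from -0.26 for Ngfr to 0.50 for Egr2. Markers of neighbouring tissue varied widely. For skeletal muscle the summed intensity of 20 marker genes ran from 80369 to 134036 in KO and from 54970 to 146028 in wild type. For fat, 13 marker genes summed to 9112 to 38636 in KO and 10398 to 42016 in wild type. In whole nerve, a change in the share of a cell type and a change in RNA per cell cannot be told apart.

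Pdk4 was higher on every KO array than on any wild-type array. Its intensity on the linear scale was 7986, 3671.2 and 5606.5 on KO arrays 1 to 3, against 3034.1, 2780.4 and 2603.4 on wild-type arrays 1 to 3. The wild-type arrays lay close together, and the KO arrays were spread, with replicate 1 highest and replicate 2 nearest to wild type. On the log2 scale the means were 12.42 ± 0.56 in KO and 11.45 ± 0.11 in wild type (SD, n = 3 each). The log2 fold change was 0.97 ± 0.27 (SE; 95% interval 0.34 to 1.60), or 1.96-fold, with a limma adjusted p = 0.850 over all genes. By unadjusted p it ranked 180 of 22180. Pdk4 thus did not pass the adjusted test, which 1 gene in all (0.00451%) passed.

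The criterion of the study was an unadjusted p under 0.05 with at least 1.5-fold change. It was applied here with the p of limma in place of the methods' own test. Of the 6 members, 1, Pdk4, met it in this form, and 5 did not. Across all genes 1.19% met it, 0.64% as higher in KO, and 4.08% of genes had every KO value above every wild-type value, as Pdk4 had. Over all genes the criterion was met by 142 genes higher and 123 lower in KO, or by 188 and 101 with the arrays brought to one median. The total of 265 became 138 with the methods' own test, and Pdk4 still met the criterion. The limma total was 552 when KO replicate 2 was left out, 435 when wild-type replicate 1 was, and 488 when wild-type replicate 3 was. Pdk4 met the criterion whichever array was left out, at log2 fold changes from 0.70 without KO replicate 1 to 1.26 without KO replicate 2.

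**Figure D1:**
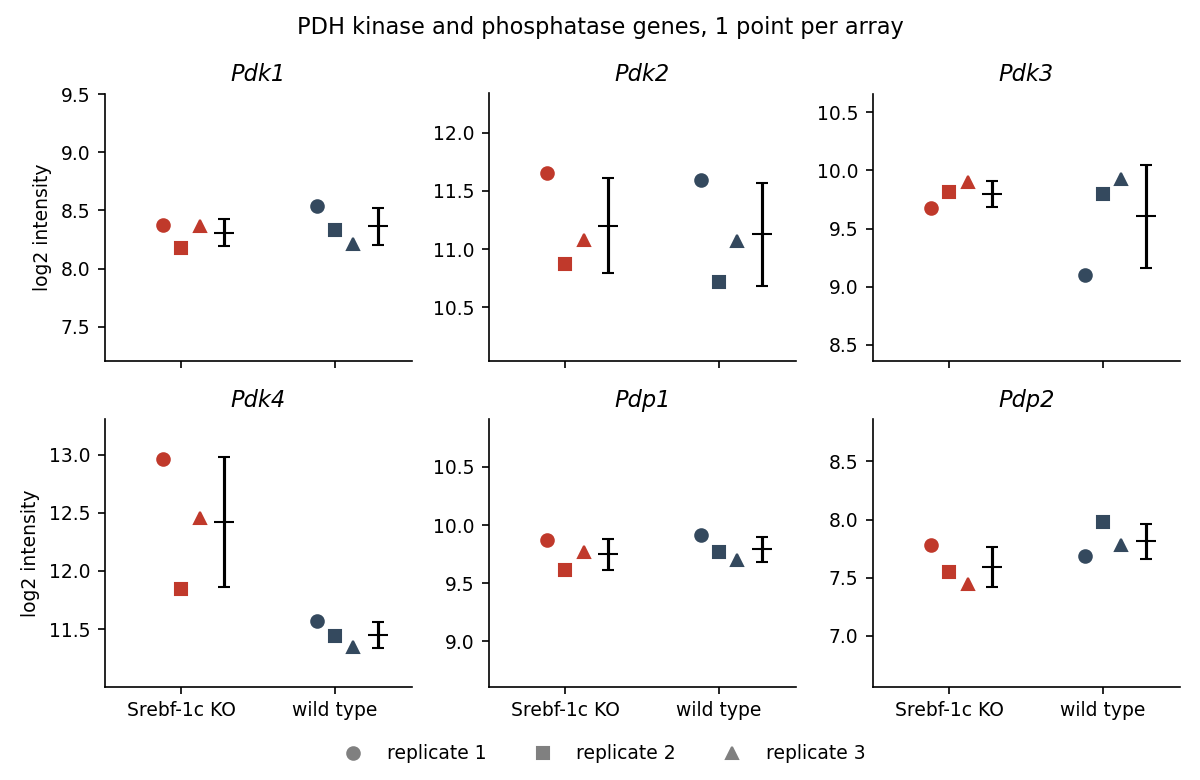
Log2 intensity (vertical axes, each spanning the same range) of the 6 genes on the 3 Srebf-1c KO and 3 wild-type arrays, with marker shapes for replicate numbers and bars for mean and SD. Only the Pdk4 panel shows 2 groups that do not overlap.

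The probe set of Pdk4 stood at the 98.95th percentile of all genes by mean intensity, Pdk2 at the 97.1st, Pdk3 at the 85.4th and Pdk1 at the 64.3rd. The percentiles of Pdp1 and Pdp2 were 86.3 and 54.4. Different probe sets differ in brightness for equal amounts of transcript, so this order is one of probe set signals, and the isoforms were compared below by their changes.

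Pdk2, which phosphorylates the complex in many tissues, had log2 intensities of 11.66, 10.87 and 11.08 in KO and 11.60, 10.72 and 11.07 in wild type. The spread within each genotype far exceeded the difference between them, and replicate 1 was the highest array of both. The log2 fold change was 0.07 ± 0.28 (SE; 95% interval -0.58 to 0.73; adjusted p = 0.985 in limma).

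Pdk3, the kinase encoded on the X chromosome, had log2 intensities of 9.67, 9.82 and 9.90 in KO and 9.10, 9.79 and 9.92 in wild type. All arrays but wild-type replicate 1 lay within a narrow range, and that array was lowest. The log2 fold change was 0.19 ± 0.22 (SE; 95% interval -0.33 to 0.71; limma adjusted p = 0.936), and it was -0.063 without that array.

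Pdk1, the kinase linked to hypoxia, had log2 intensities of 8.38, 8.17 and 8.37 in KO and 8.54, 8.34 and 8.21 in wild type. The groups overlapped, and the highest array was wild-type replicate 1. The log2 fold change was -0.055 ± 0.13 (SE; 95% interval -0.37 to 0.26; limma adjusted p = 0.975). The second, dim probe set gave 0.15 ± 0.15.

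The phosphatase Pdp1 had log2 intensities of 9.87, 9.61 and 9.76 in KO, against 9.91, 9.77 and 9.70 in wild type. The arrays of both genotypes were interleaved. Its log2 fold change was -0.044 ± 0.13 (SE; 95% interval -0.34 to 0.25; limma adjusted p = 0.976).

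Pdp2 had log2 intensities of 7.79, 7.55 and 7.45 in KO and 7.68, 7.98 and 7.78 in wild type. KO replicates 2 and 3 lay below every wild-type array, and KO replicate 1 lay among them. Its log2 fold change was -0.22 ± 0.14 (SE; 95% interval -0.55 to 0.12; limma adjusted p = 0.890), and it stayed below 0 with each array left out in turn, at -0.31 to -0.14. As a group the 6 members had 3 higher and 3 lower means in KO, where 43.1% of all genes were higher. Their median log2 fold change was 0.015, beside -0.032 over all genes.

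**Figure D2:**
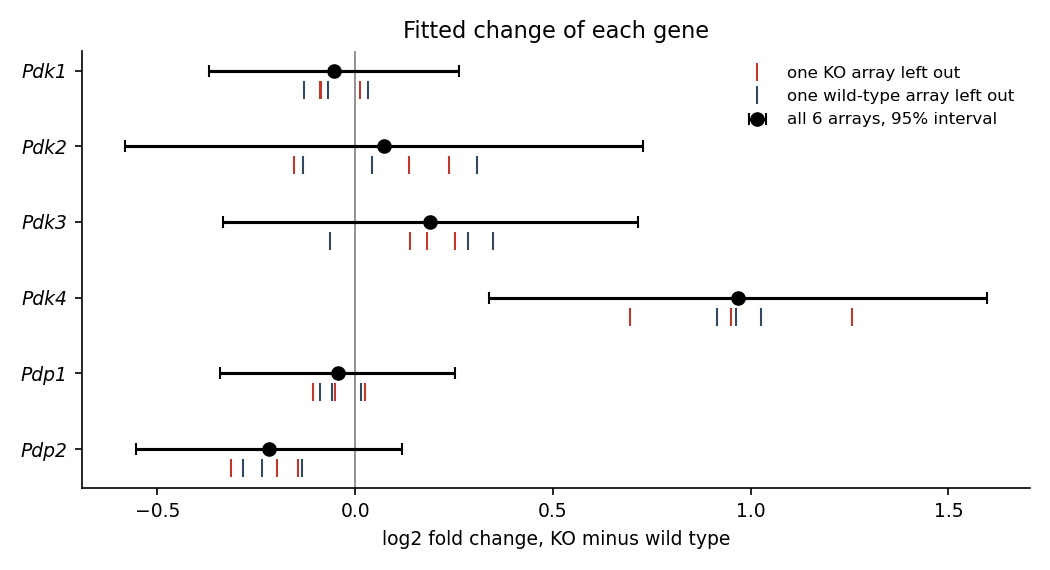
Log2 fold change of each gene, KO minus wild type (horizontal axis), with the 95% interval of the limma fit, and ticks for fits with 1 array left out. The Pdk4 interval of 0.34 to 1.60 lies above 0, and the intervals of the other 5 genes include 0. The intervals are not adjusted for the number of genes tested, and the limma adjusted p of Pdk4 was 0.850.

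The difference between the log2 intensities of 2 genes on an array depends on the brightness of both probe sets, but that part cancels when the KO and wild-type means of the difference are compared. Pdk4 minus Pdk2 was 1.31, 0.97 and 1.38 in KO, against -0.029, 0.72 and 0.28 in wild type, a difference of 0.90 on the log2 scale. For this pair the KO arrays lay closer together than for Pdk4 alone (SD 0.22 against 0.56), and the wild-type arrays lay farther apart (SD 0.38 against 0.11). Pdk4 minus Pdp1 was 3.09, 2.23 and 2.69 in KO, against 1.66, 1.68 and 1.64 in wild type, a difference of 1.01. The difference was 1.02 for Pdk4 minus Pdk1 and 1.19 for Pdk4 minus Pdp2. In these 4 pairs the genotypes did not overlap, nor did they for Pdk4 alone, whose values all pairs share. For Pdk4 minus Pdk3 the difference was 0.78 and the arrays overlapped, since wild-type replicate 1 had the low Pdk3 value. An exact two-sided permutation test of 3 against 3 arrays cannot go below p = 0.1. It gave 0.1 for the 4 pairs and 0.2 for Pdk4 minus Pdk3, or 0.125 and 0.2 adjusted over the 5 pairs, so no pair passed.

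**Figure D3:**
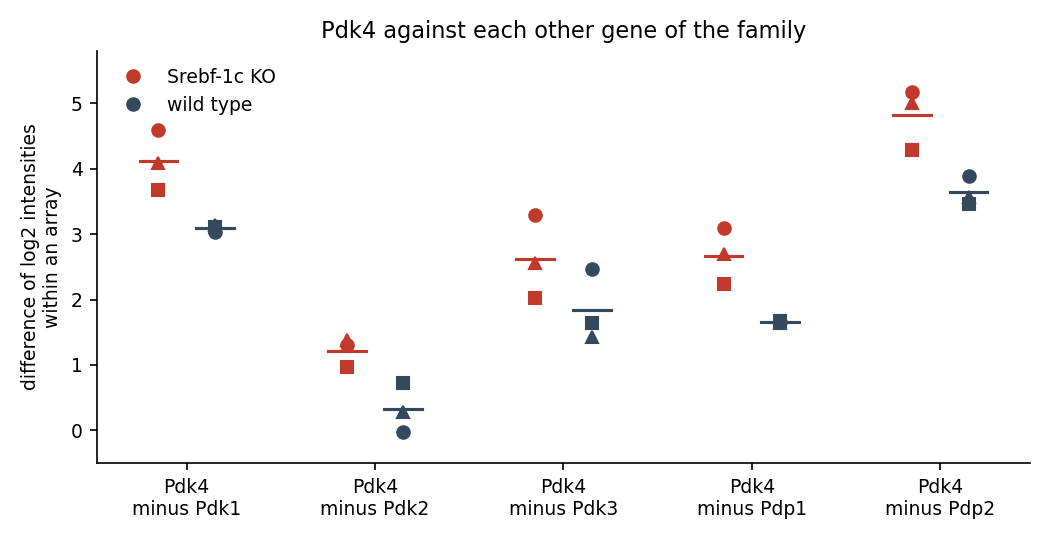
Difference of log2 intensities within an array (vertical axis) between Pdk4 and each other gene, 1 point per array (circle, square and triangle for replicates 1, 2 and 3) and lines for group means. The KO arrays lie above the wild-type arrays in 4 of the 5 pairs, all of which share the Pdk4 values. The height of a pair also reflects probe brightness.

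Several of these genes are abundant in muscle or fat, so their values were set beside marker scores, the mean over a marker list of log2 intensity minus the gene's mean. The skeletal muscle score was 0.43, -0.37 and 0.24 in KO and 0.82, -0.92 and -0.19 in wild type, with no marker at 0. Pdk2 had the order of the score within each genotype and followed it across the 6 arrays (Pearson r = 0.91, exact permutation p = 0.00694, Spearman rho = 0.94, exact p = 0.0167). Adjusted over the 18 relations of members with muscle, fat and Schwann cell scores, these became 0.125 and 0.300, and r was 0.84 without the 2 arrays farthest from the median score. With the muscle score as a covariate the log2 fold change of Pdk2 was -0.038 ± 0.16 (SE). Pdk4 had log2 intensities of 12.96, 11.84 and 12.45 on KO arrays 1 to 3, in the order of their muscle scores. Wild-type replicate 1 had the highest muscle score of all arrays and the highest Pdk4 in wild type, 11.57, which was below all KO arrays. Over the 6 arrays the relation of Pdk4 with the score did not pass (r = 0.43, exact p = 0.389, rho = 0.43, exact p = 0.419, adjusted 0.685 and 0.814). Without the 2 arrays farthest from the median score, wild-type replicates 1 and 2, that r was 0.88. It then rested on the KO arrays and wild-type replicate 3. The same step gave Pdk4 an r of 0.88 with the Schwann cell score (0.35 over all arrays), there without wild-type replicates 2 and 3. Such a value is thus not particular to the muscle score. Pdk4 stood at 0.91 ± 0.25 (SE) with the muscle score and at 0.88 ± 0.21 with the fat score as a covariate. Each score is a mean over markers that went both ways. For muscle 13 were higher and 7 lower in KO, and for fat 3 and 10, where 43.1% of all genes were higher. Myh2, the muscle marker with the largest rise, had 11.42, 9.06 and 11.59 in KO and 11.13, 8.72 and 8.82 in wild type. The covariate fits thus do not stand for each single marker.

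The adipocyte score separated KO replicate 2 at 1.32 and wild-type replicate 3 at 1.57 from the other arrays, which lay between -1.02 and -0.21. These same 2 arrays had the lowest values of Pdk1 and of Pdp1, and no correlation is given over such clusters. Pdk1 and Pdp1 moved together (r = 0.93, exact permutation p = 0.0167, rho = 0.94, exact p = 0.0167, both 0.250 adjusted over 15 pairs of members), with r = 0.79 without the 2 arrays farthest from the median Pdk1. KO replicate 2, which had the highest adipocyte score in KO, was also the KO array with the lowest Pdk4. With 3 arrays per genotype no correlation is given within a genotype, and the labels give no batch. The part of muscle or fat in any of these values was not tested beyond the covariate fits.

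**Figure D4:**
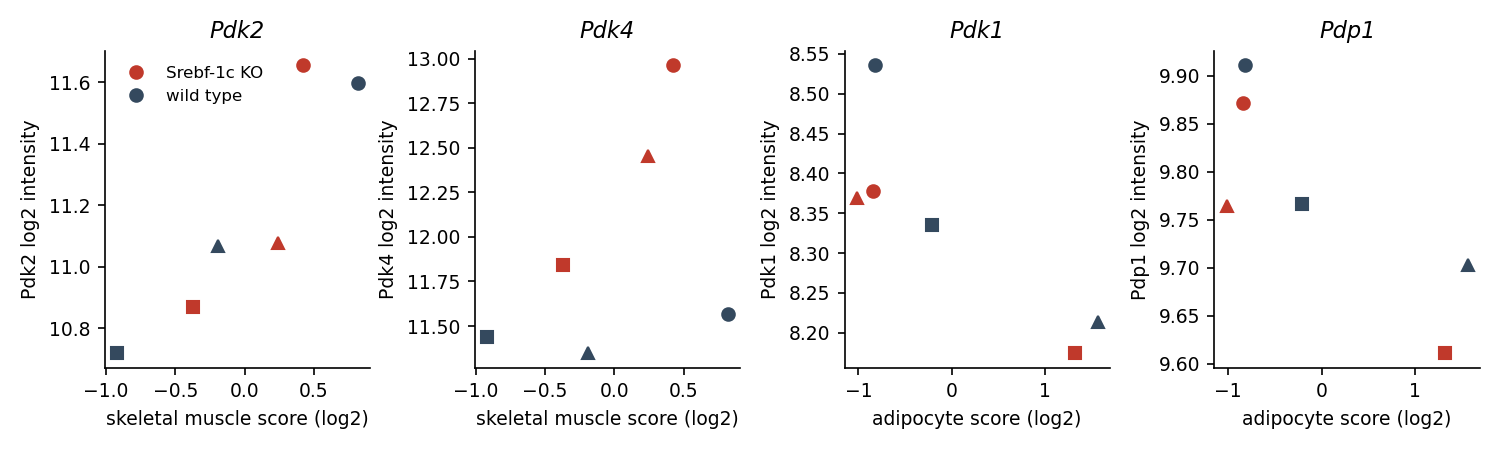
Log2 intensity of Pdk2 and Pdk4 against the skeletal muscle score and of Pdk1 and Pdp1 against the adipocyte score (both in log2 units), 1 point per array with replicate shapes. Pdk2 climbs with the muscle score in both genotypes, and wild-type replicate 1 shows the highest muscle score with a Pdk4 value of 11.57.

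No gene of the complex that these enzymes act on passed the test. Of its 6 measured genes, Pdpr included, 4 had higher and 2 lower means in KO, where 43.1% of all genes were higher. The median log2 fold change was 0.18. Of the 6, 0 passed the adjusted test (limma) and 0 had an unadjusted p under 0.05. Over all genes 2.34% had such a p as higher and 3.49% as lower in KO, so 0 of 6 is near that share. The E3 gene Dld stood at 0.27 ± 0.18 (SE), Pdpr, the regulatory subunit of the phosphatase, at 0.20 ± 0.23, the E2 gene Dlat at 0.18 ± 0.21 and the E1 beta gene Pdhb at 0.18 ± 0.23. The E1 alpha gene Pdha1, which carries the phosphorylation sites, stood at -0.11 ± 0.21 and the E3-binding protein gene Pdhx at -0.10 ± 0.20.

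Around the complex, pyruvate supply and disposal had 5 of 9 measured genes higher and 4 lower. Over all genes 43.1% were higher, 2.34% were higher at an unadjusted p under 0.05 and 3.49% lower at such a p. Of the 9 genes, 1 had such a p. That gene was Gpt2, the mitochondrial alanine transaminase, with 10.92, 11.01 and 10.78 in KO and 10.61, 10.54 and 10.65 in wild type (log2 fold change 0.30 ± 0.12, SE). Gpt2 kept that p under 0.05 in 10 of 17 alternatives, and with 1 array left out it did so for KO replicate 3 alone. Mpc1, of the mitochondrial pyruvate carrier, stood at 0.38 ± 0.24 and pyruvate carboxylase, Pcx, at -0.55 ± 0.35. Neither had an unadjusted p under 0.05, and both moved with single arrays, Mpc1 being 0.14 without wild-type replicate 2 and Pcx -0.18 without wild-type replicate 3. The related kinase and phosphatase of branched-chain keto acid dehydrogenase and its subunits had 1 of 5 genes higher and 4 lower. Of these, 0 had an unadjusted p under 0.05, which at the shares over all genes says little about so short a list. Of them the core subunit Dbt stood at -0.16 ± 0.19, the phosphatase Ppm1k at 0.065 ± 0.14 and the E1 beta gene Bckdhb at -0.091 ± 0.21. None of these genes passed the adjusted test in limma.

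Genes known to respond to the signals that raise Pdk4 were taken list by list, and no difference between lists was tested. The lists were chosen with earlier results of these data known, so their counts are descriptions. Over all 22180 genes 43.1% had a higher mean in KO, 2.34% were higher at an unadjusted p under 0.05, and the median log2 fold change was -0.032. The share of 43.1% depends on scaling and brightness. It was 48.5% after quantile normalization, 49.8% with the arrays at one median and 37% without the dimmest 50% of genes. Of 12 glucocorticoid-responsive genes, 11 had higher means in KO, 6 of them at an unadjusted p under 0.05, and the median log2 fold change was 0.40. With 1 array left out the 6 became 4 to 8. The 3 with the smallest p were Hif3a, a hypoxia-inducible factor family member, at 1.10 ± 0.23 (SE), the clock gene Per1 at 0.52 ± 0.13 and the kinase gene Sgk1 at 0.55 ± 0.16. Per1 had 11.30, 11.23 and 11.15 in KO, against 10.52, 10.78 and 10.83 in wild type. Of 17 fasting and PPAR target genes, 15 had higher means, 3 at an unadjusted p under 0.05, with a median of 0.17. Fgf21, a fasting hormone gene, stood at 0.60 ± 0.19, Acot2, a thioesterase of mitochondria, at 0.86 ± 0.29 and Fabp3, which carries fatty acids, at 0.53 ± 0.18. The 3 calls were not stable. In limma 0 genes of this list were higher at that p without KO replicate 1 or without KO replicate 3, 1 was without wild-type replicate 1, and 5 were without KO replicate 2. Each of Fgf21, Acot2 and Fabp3 lost the call for at least 1 left-out array, at unadjusted limma p-values up to 0.055, 0.068 and 0.082. Acot2 had 9.91, 9.06 and 9.54 in KO and 8.10, 8.86 and 8.97 in wild type. Its highest KO array was replicate 1 and its lowest replicate 2, as for Pdk4, Pdk2 and the skeletal muscle score. Fgf21 (6.44, 5.88 and 6.54 in KO) and Fabp3 (9.79, 9.39 and 9.96) were highest in KO replicate 3. The glucocorticoid list had scores of 0.19, 0.45 and 0.033 in KO and -0.42, -0.33 and 0.083 in wild type. What lies behind these orders was not tested. No member of either list passed the adjusted test.

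FOXO targets had 4 of 10 measured genes higher and 6 lower with a median of -0.028, and hypoxia-inducible factor targets had 7 of 13 higher and 6 lower with a median of 0.00040, both with 0 genes at an unadjusted p under 0.05. Over all genes 43.1% were higher, and 2.34% were higher and 3.49% lower at such a p in limma. At these shares 0 of 10 and 0 of 13 say little about such short lists. In the FOXO list the cyclin gene Ccng2 stood at -0.16 ± 0.13 (SE), the repressor Bcl6 at -0.15 ± 0.17 and the muscle ubiquitin ligase Trim63 at 0.40 ± 0.50. In the hypoxia list Mxi1 stood at -0.22 ± 0.14, the prolyl hydroxylase gene P4ha1 at -0.16 ± 0.11 and Ndrg1 at 0.16 ± 0.14. The list of 13 regulators of Pdk4 transcription, in which Srebf1 was included, had 6 higher and 7 lower means. Srebf1, among the 7, was the 1 past the adjusted test, a call lost in 12 of 17 alternatives. As the targeted gene its fall belongs to the design and says nothing about the other regulators. After Srebf1 the smallest p belonged to Klf15, a glucocorticoid-induced factor, at 0.33 ± 0.15, and to the PPAR gene Ppara at 0.23 ± 0.15.

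**Figure D5:**
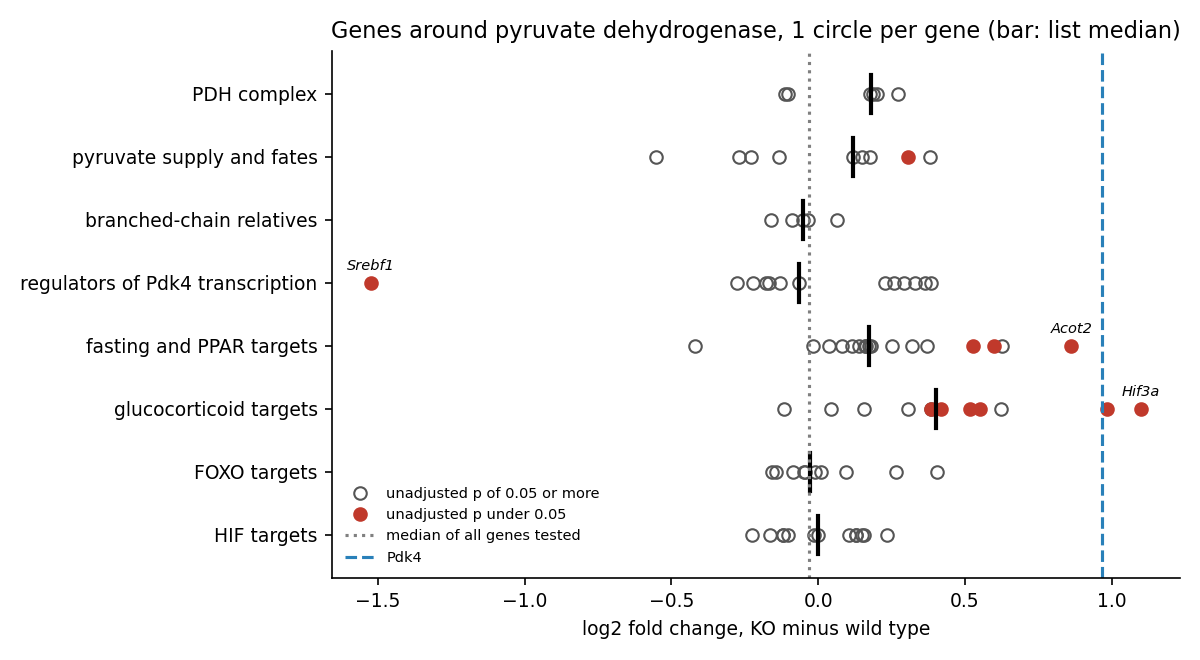
Log2 fold change, KO minus wild type (horizontal axis), of each gene in 8 lists around pyruvate dehydrogenase, with bars for list medians and filled circles for an unadjusted limma p under 0.05. The glucocorticoid list has the highest median, 0.40, and the 2 lists with medians nearest 0 are the FOXO and hypoxia lists, while Pdk4 at 0.97 (dashed line) lies beyond all but Hif3a, Zbtb16 and Srebf1 in distance from 0.

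As a description of likeness, each member was correlated over the 6 arrays with 4991 genes of the brighter 50% that varied by at least 0.5 on the log2 scale. With so few arrays and so many genes, high values arise easily, and for Pdk4 12 genes exceeded r = 0.95. The 6 closest to Pdk4 were Cab39, a subunit partner of the kinase LKB1 (r = 0.99), the growth factor gene Vegfb (0.98), the vesicle transport GTPase gene Rab10 (0.98), Tmem65 (0.98), the mitochondrially encoded complex I gene ND3 (0.97) and Krtap9-1 (0.96). Their log2 fold changes ran from 0.34 for Vegfb to 0.40 for Tmem65. They were picked for following Pdk4 on these same arrays, so a change of the same sign comes with the choice. Pdk2 had 138 genes above 0.95, led by Chchd3, a scaffold of the mitochondrial inner membrane (r = 0.998), and Ndufaf4, a complex I assembly factor (0.99). The closest to Pdk3 were Cript and Zfp141 (both r = 0.99), to Pdk1 Syt11 (0.99) and Stau2 (0.98), to Pdp1 Igsf9 (0.99) and Srp14 (0.98), and to Pdp2 Exoc8 (0.98) and Nol10 (0.97).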

How the data were processed

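RNA of 6 whole sciatic nerve samples was hybridised to 1 array each. The deposited intensities, 1 per probe set and array, were computed by the authors, per the series' design text, with the Robust Multichip Average in TAC and Partek. They are on a linear scale, as read from the values, and genome build mm8 is named in the submitters' processing notes. Log2 was taken with no pseudocount and no filter on dim genes. Of 41077 probe sets, 23521 carried 1 gene symbol in the platform annotation, and the one with the highest mean stood for its gene. KO minus wild type was fitted for 22180 genes with lmFit and eBayes of limma 3.58.1 (R 4.3.3), two-sided, with Benjamini-Hochberg adjustment over all genes, and the procedure was tested on simulated data. Correlations and plots used numpy 2.4.6 and matplotlib 3.10.9. Members, gene lists and tests were chosen with earlier results of these data known. Named genes are the members, Srebf1, the complex, the 3 smallest p of each other pathway list, and the closest in likeness (6 for Pdk4, 2 for the others), leaving out predicted, clone, olfactory, vomeronasal and small RNA genes. Zbtb16, Egr2, Ngfr and Myh2 were named after their values were seen. Marker genes without a probe set of their own symbol, among them all erythroid ones, were not used. Alternatives tried were the methods' ANOVA, a replicate block, an intensity trend, array weights, filters on dim genes, other scalings, probe set means, marker scores as covariates, a fold limit of 2 and leaving out each array.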

Additional observations from a re-analysis of the deposited data

How the results depend on the processing

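In every setting tried Pdk4 kept its direction and met the criterion of the study at 1.5-fold (log2 fold change 0.88 to 1.06 on all arrays, 0.70 to 1.26 with an array left out), except that at a fold limit of 2 it did not, leaving 0 members. None of the 6 members passed the adjusted test in any setting. The count over all genes was 138 with the methods' ANOVA, 150 and 89 without the dimmest 25% and 50% of genes, 34 at a fold limit of 2, and 231 to 552 with an array left out. Signs near 0 turned: Pdk1 was 0.017 after quantile normalization, 0.048 as a mean of probe sets and 0.15 at its other probe set. With the muscle score as a covariate Pdk2 was -0.038, Chchd3 -0.029 and Ndufaf4 -0.0067, and with array weights Stau2 was 0.0094. With an array left out, values ran from -0.13 to 0.032 for Pdk1, -0.15 to 0.31 for Pdk2, -0.063 to 0.35 for Pdk3, -0.11 to 0.025 for Pdp1, -0.23 to 0.024 for Syt11, -0.21 to 0.093 for Stau2, -0.13 to 0.28 for Chchd3, -0.074 to 0.19 for Ndufaf4, -0.031 to 0.22 for Zfp141, -0.46 to 0.060 for Igsf9, -0.23 to 0.0095 for Srp14, -0.0094 to 0.35 for Pdhb, -0.013 to 0.17 for Ppm1k, -0.25 to 0.083 for Bckdhb and -0.16 to 0.84 for Trim63. The cause was not tested. Beyond leaving out arrays, Srebf1 lost its adjusted call in limma with quantile normalization (adjusted p = 0.0594), arrays at one median (0.0842), the adipocyte score (0.139), the muscle score (0.218) and the block, and also in the methods' ANOVA (0.308). The fasting and PPAR list had 5 genes higher at an unadjusted p under 0.05 with the block and 1 with the ANOVA, in place of 3, and such recounts of the lists were chosen after seeing the data. The differences between Pdk4 and the other members stayed above 0 with each array left out, from 0.44 to 1.45, in alternatives chosen after seeing the data. Same-numbered arrays of the genotypes did not deviate together (correlations of 0.12, 0.012 and -0.23 across genes). The labels do not say whether such arrays shared a step of the work, and these correlations cannot tell. With the replicate block the Pdk4 log2 fold change was 0.97 (adjusted p = 0.815 in limma), Pdk1 -0.055, Pdk2 0.073, Pdk3 0.19, Pdp1 -0.044 and Pdp2 -0.22, with 1 member and 288 genes meeting the criterion, and the block changed no call of a member. Precision is limited by 3 arrays per genotype, and signal over background is not given by the values used here.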
